A study of Homo sapiens with 6 samples.

Results

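A set of 42 genes of homologous recombination, the Fanconi anaemia pathway and the DNA damage checkpoint was followed in cultures of SKOV3ip1, a line of human ovarian adenocarcinoma cells related to SKOV3. They were chosen by gene name from a list of 42, and all 42 were found among the 58735 genes of the count table, each with 1 row. The BARD1 siRNA libraries came from cells kept for 48 h after lipid transfection with 2 µg of BARD1 siRNA, and the control siRNA libraries from the same cells given 2 µg of control siRNA, with 3 poly(A)-captured libraries in each group. The genotype of both groups is given as WT. BARD1 binds BRCA1 through a RING domain to form a ubiquitin ligase, and the study asked how its silencing affects pathways of tumour angiogenesis. The labels name tumours of the line as the source, while the protocols describe cells in culture. The labels call the libraries biological replicates. The sources used here give neither the siRNA sequences nor the days of transfection, and each p-value reflects variation among these libraries alone.

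Homologous recombination repairs a DNA double-strand break by copying an intact sister chromatid. The broken ends are resected to single strands, BRCA2 and other mediators prepare them for strand exchange, and nucleases later cut the joint molecules. The Fanconi pathway acts at DNA interstrand crosslinks, where a core ubiquitin ligase complex modifies FANCD2 and FANCI. The kinases ATM and ATR signal breaks and stalled forks to CHEK2 and CHEK1. Inherited loss of BRCA1, BRCA2, RAD51C or RAD51D raises the risk of ovarian cancer.

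The deposited values were raw read counts per gene, and libraries held 16621108 to 17743404 counts. Levels are given as counts or as CPM, the counts scaled to a common library size with TMM factors that correct for library composition. A gene was called changed at a Benjamini-Hochberg adjusted p under 0.05 over all 15271 genes tested in edgeR's quasi-likelihood test. The targeted gene fell: BARD1 had 96, 110 and 169 counts with BARD1 siRNA, against 805, 644 and 887 with control siRNA (log2 fold change −2.58, SE 0.14, edgeR adjusted p = 1.21e-15). PTPRC, the pan-leukocyte marker, CD3E, LYZ and CD68 had 0 counts in all 6 libraries, and each of 5 endothelial markers had at most 12 counts in any library. Of 4 tested fibroblast markers COL3A1 was lower, and PDGFRB had at most 2 counts. Of 10 ovarian carcinoma line markers 5 were lower (CD24 at −1.99, KRT7 at −0.98, KRT19 at −0.60, EPCAM at −0.24 and ERBB2 at −0.14 in log2 fold change) and 2 higher (PAX8 at 0.75 and KRT18 at 0.40), and the part of these changes in the members' changes was not tested. Among all tested genes 20.3% were lower and 22.0% higher. CD24 had 4251, 4538 and 4295 counts with BARD1 siRNA, against 17339, 17169 and 19665 with control siRNA. KRT8 and MSLN were not called, and WFDC2 was low, at 23 to 27 counts with BARD1 siRNA and 20 to 26 with control siRNA.

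The promoters of the members with the lowest and highest fold changes, among those whose sequence could be shown, come first, so that their sequence can be read beside the values. They come from RefSeq (GRCh38.p14), run 5′ to 3′ on the gene's strand and hold 250 bases before and 50 bases from the RefSeq start. Capitals mark E2F motifs (TTTCCCGC, TTTCGCGC, TTTGCCGC or TTTGGCGC), the CHR element TTTGAA and the CCAAT box, each on either strand, and no marked motifs overlap. Motifs of these kinds are known from promoters of cell cycle genes. FANCM and RAD51C had the lowest fold changes. MUS81 and RNF168 had the highest, of which MUS81 was not called.
FANCM (chr14:45135680-45135979, plus strand): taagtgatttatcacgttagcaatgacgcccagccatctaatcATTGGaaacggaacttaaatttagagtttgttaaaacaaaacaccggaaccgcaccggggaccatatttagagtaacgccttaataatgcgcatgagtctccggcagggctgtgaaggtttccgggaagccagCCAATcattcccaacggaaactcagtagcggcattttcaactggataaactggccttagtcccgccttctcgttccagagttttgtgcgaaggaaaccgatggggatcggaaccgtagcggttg
RAD51C (chr17:58692323-58692622, plus strand): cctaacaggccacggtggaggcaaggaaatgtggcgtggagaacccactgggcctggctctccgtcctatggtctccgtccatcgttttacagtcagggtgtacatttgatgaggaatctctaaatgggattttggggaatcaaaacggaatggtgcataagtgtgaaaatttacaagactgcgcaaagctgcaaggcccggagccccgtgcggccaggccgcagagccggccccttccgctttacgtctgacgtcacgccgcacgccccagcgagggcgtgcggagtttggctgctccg
MUS81 (chr11:65860183-65860482, plus strand): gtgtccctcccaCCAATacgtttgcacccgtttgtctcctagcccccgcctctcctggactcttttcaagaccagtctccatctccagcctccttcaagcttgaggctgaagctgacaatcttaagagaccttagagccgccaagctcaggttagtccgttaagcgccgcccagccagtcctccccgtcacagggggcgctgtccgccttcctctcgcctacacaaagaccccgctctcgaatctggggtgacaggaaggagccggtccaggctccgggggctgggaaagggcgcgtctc
RNF168 (chr3:196503719-196504018, minus strand): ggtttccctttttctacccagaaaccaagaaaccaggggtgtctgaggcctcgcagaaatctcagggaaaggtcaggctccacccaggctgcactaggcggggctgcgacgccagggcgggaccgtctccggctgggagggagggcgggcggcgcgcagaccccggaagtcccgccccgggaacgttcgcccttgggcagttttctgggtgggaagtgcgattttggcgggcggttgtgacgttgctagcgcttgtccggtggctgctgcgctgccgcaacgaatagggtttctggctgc
FANCM holds 2 CCAAT boxes and MUS81 holds 1, and no motif of the 3 kinds was found in these windows of RAD51C and RNF168. The RefSeq start of MUS81 lies 3307 bases downstream of the start in the count table.

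Most members fell. Of 42 members tested, 26 were lower and 2 higher with BARD1 siRNA, and 14 were not called. In percent, 61.9% of members were lower, against 20.3% of all tested genes, and 4.76% were higher, against 22.0%. The same shares of all tested genes stand beside the counts by role below. Each role held only 2 to 10 genes, and differences between roles were not tested. The members' median log2 fold change (BARD1 siRNA over control siRNA) was −0.32, and that of all tested genes was −0.01. The changes were small: the fold changes ran from −0.72 for FANCM to 0.41 for RNF168, and 9 of 42 members (21.4%) were called with a log2 fold change of −0.5 or lower, against 7.83% of tested genes. All 3 BARD1 siRNA libraries lay below all 3 control siRNA libraries for 27 members (64.3%, against 24.7% of tested genes) and above them for 3 (7.14%, against 25.8%). With upper-quartile scaling 31 members were lower and 2 higher, where the share of higher genes among all called genes was 41.5%, against 51.9% with TMM.

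**Figure D1:**
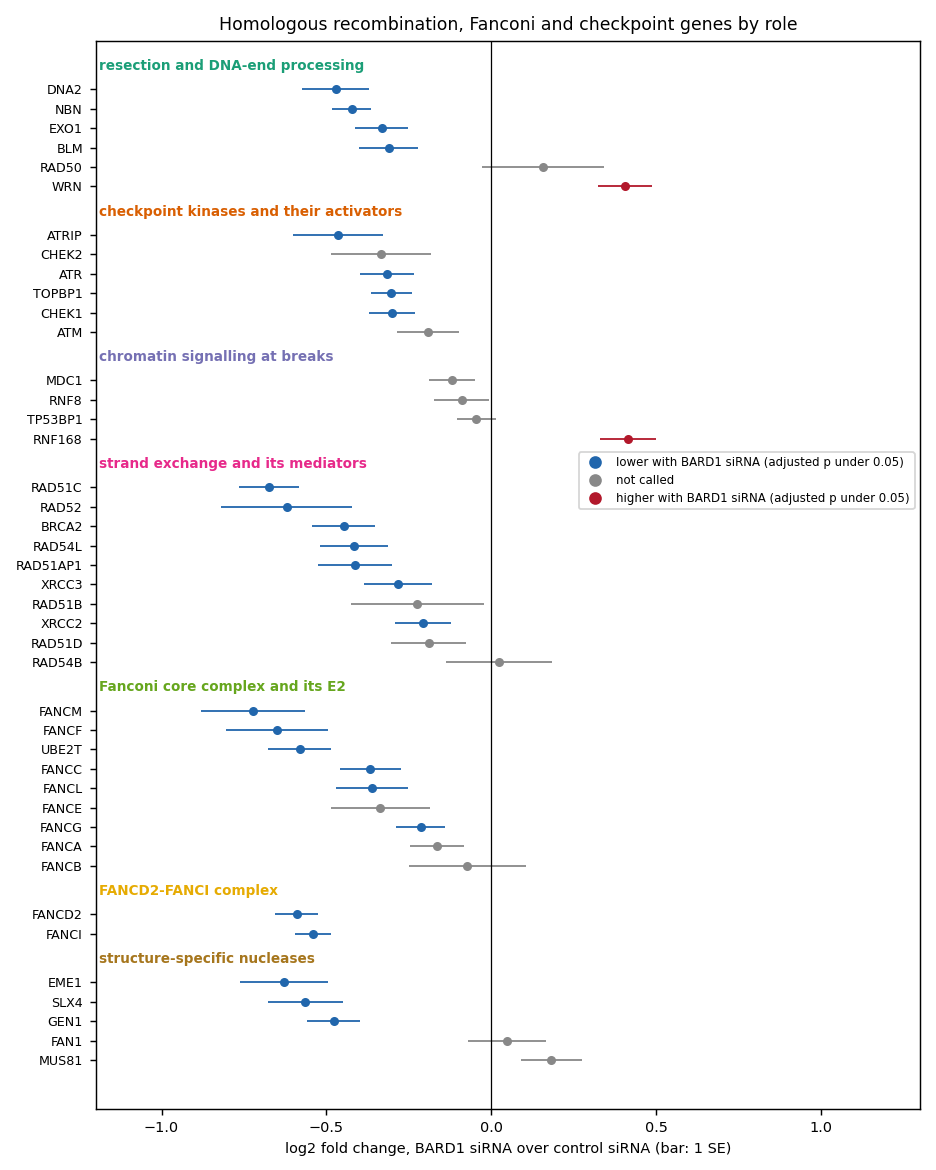
Log2 fold change of BARD1 siRNA over control siRNA for the 42 genes, arranged by role, with 1 SE from edgeR's test as the bar (3 libraries per group). Blue points mark the 26 genes called lower, red points the 2 called higher (WRN and RNF168) and grey points the 14 not called; both genes of the FANCD2-FANCI complex and none of the 4 chromatin signalling genes are blue.

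The pattern was present in each library. Relative to the mean of the control siRNA libraries, the median log2 ratio over the 42 members was −0.37, −0.36 and −0.24 in BARD1 siRNA libraries 1, 2 and 3. In the control siRNA libraries it was 0.02, −0.08 and 0.04. The summed level of the members was 1536, 1509 and 1586 CPM with BARD1 siRNA, against 1925, 1801 and 1951 CPM with control siRNA, and the groups did not overlap. In bulk RNA, fewer cells of a kind and less RNA per cell cannot be told apart.

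**Figure D2:**
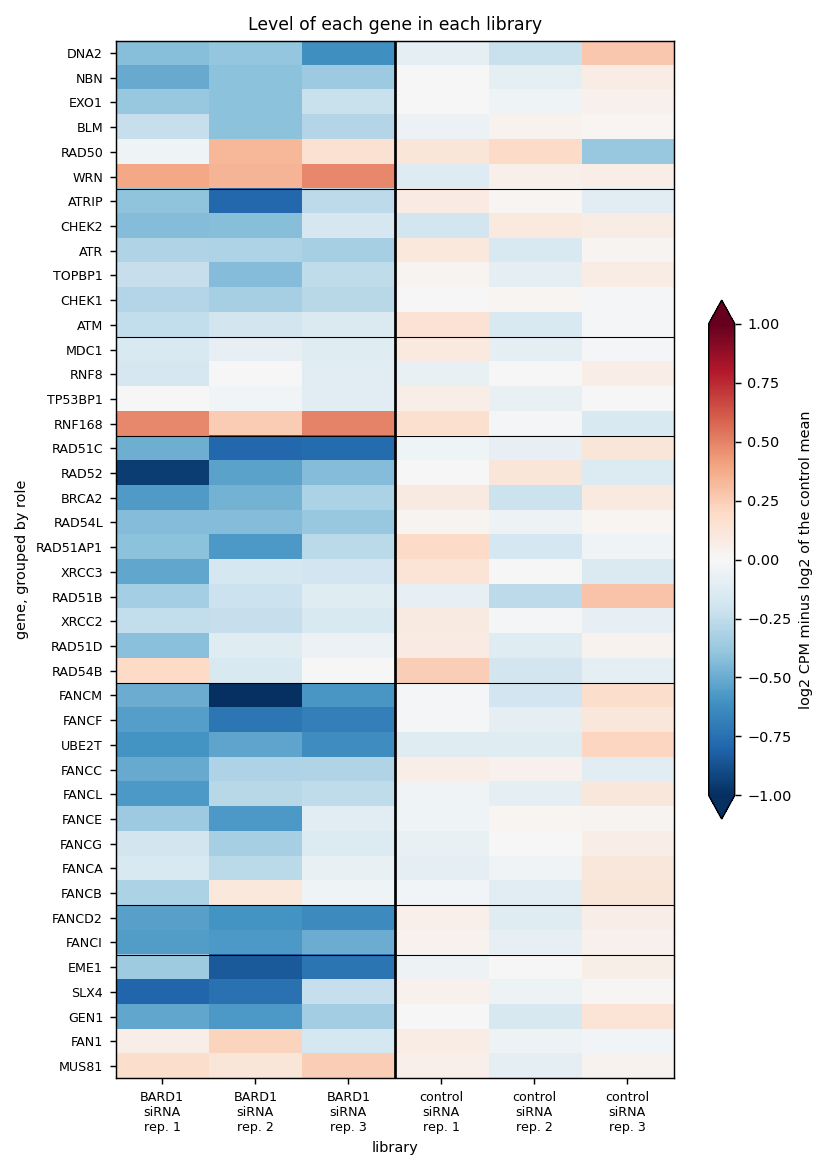
Level of each gene (rows, grouped by role) in each of the 6 libraries (columns, BARD1 siRNA left of the line and control siRNA right of it), as log2 CPM minus the log2 of the control mean. Blue cells fill most rows of the BARD1 siRNA libraries; the deepest are RAD52 at −0.95 in BARD1 siRNA library 1 and FANCM at −1.18 in library 2, which lies past the end of the colour scale.

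The monoubiquitinated pair at the centre of the Fanconi pathway fell in every BARD1 siRNA library. FANCD2 (ENSG00000144554, GRCh38 chromosome 3, 10026414 to 10101930) had 1230, 1233 and 1237 counts with BARD1 siRNA, against 2008, 1727 and 2077 with control siRNA. Its partner FANCI (ENSG00000140525, chromosome 15, 89243949 to 89317261) had 2159, 2220 and 2406 counts with BARD1 siRNA, against 3523, 3144 and 3619 with control siRNA. The groups lay apart for both genes. FANCD2 was 1.51-fold lower (log2 fold change −0.59, SE 0.06, edgeR adjusted p = 4.22e-11) and FANCI 1.46-fold lower (−0.54, SE 0.05, edgeR adjusted p = 5.07e-12).

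Of the 9 genes of the Fanconi core complex and its ubiquitin-conjugating enzyme, 6 were lower and 0 higher (all tested genes: 20.3% and 22.0%). Their median was −0.36. FANCM, the DNA translocase that anchors the core complex to DNA (ENSG00000187790, chromosome 14, 45135940 to 45200890), had 157, 102 and 159 counts with BARD1 siRNA, against 238, 204 and 278 with control siRNA. Every BARD1 siRNA library was below every control siRNA library, and the fold change of −0.72 (SE 0.16, edgeR adjusted p = 0.000171) was the lowest of the members. FANCF, an adaptor subunit of the core complex encoded by a single exon, had 131, 121 and 128 counts with BARD1 siRNA, against 204, 188 and 230 with control siRNA (log2 fold change −0.65, SE 0.15, edgeR adjusted p = 0.000493). UBE2T, the E2 enzyme that passes ubiquitin to FANCD2, had 448, 489 and 473 counts with BARD1 siRNA, against 673, 654 and 874 with control siRNA, with a log2 fold change of −0.58 (SE 0.09, edgeR adjusted p = 1.07e-06). The 2 groups of libraries did not overlap for either gene, and control siRNA library 3 was the highest of the UBE2T values.

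Of the other core members, FANCC at −0.37, the E3 ligase subunit FANCL at −0.36 and FANCG at −0.21 were called lower. FANCL lost its call without BARD1 siRNA library 1 (edgeR adjusted p = 0.0706), and FANCG lost it without control siRNA library 3 (0.0648) or BARD1 siRNA library 2 (0.141). FANCE at −0.34 was not called (edgeR adjusted p = 0.0647), although its groups did not overlap, and passed without BARD1 siRNA library 3 (0.0240), with upper-quartile factors (0.0247) or with library size alone (0.0273). FANCA at −0.16 was not called with TMM but passed with upper-quartile factors (edgeR adjusted p = 0.0192) or library size alone (0.0232). FANCB at −0.07 was not called, and the interval of FANCB, −0.42 to 0.27 (95%, normal approximation from the SE), includes a change as large as that of FANCC.

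**Figure D3:**
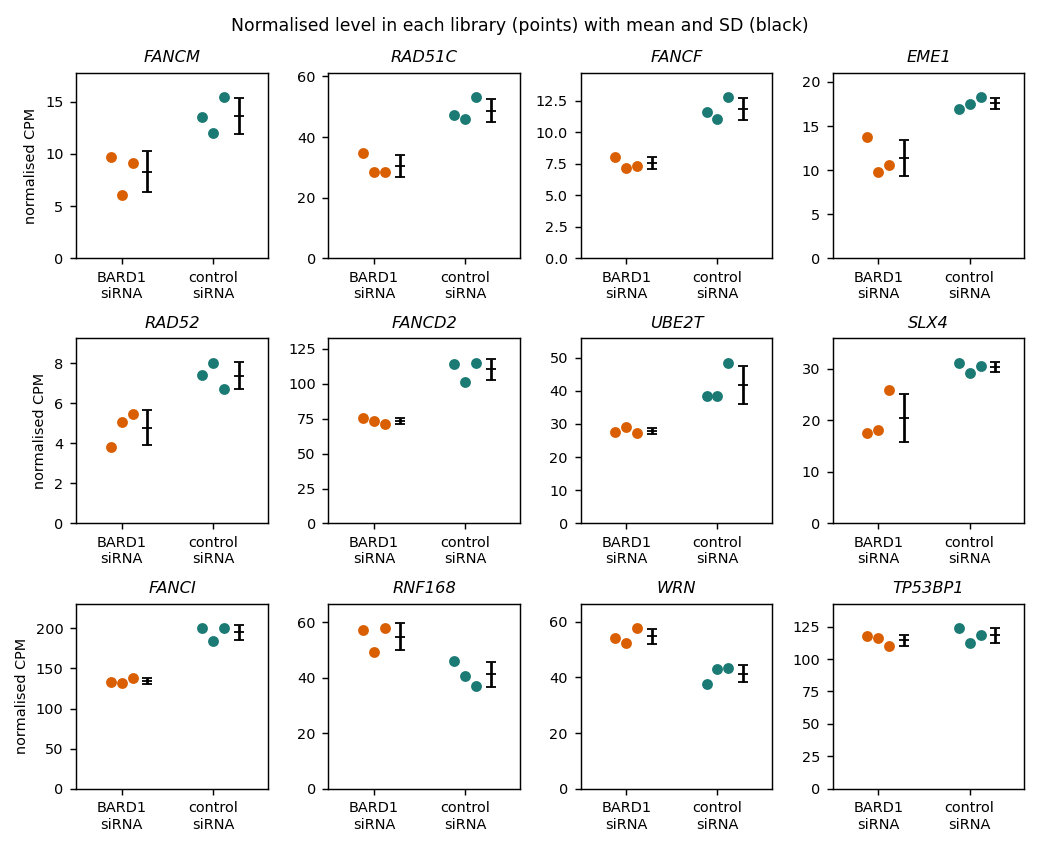
Normalised CPM of 12 members in each library (points; BARD1 siRNA in orange on the left, control siRNA in green on the right), with the mean and SD of 3 libraries in black and axes from 0. The 9 members in the first panels lie apart and lower with BARD1 siRNA, RNF168 and WRN lie apart and higher, and the TP53BP1 groups overlap at 115 ± 4.24 CPM with BARD1 siRNA and 118 ± 5.87 CPM with control siRNA.

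Genes of strand exchange and its mediators were lower in 7 of 10 cases and higher in 0 (all tested genes: 20.3% and 22.0%). Their median was −0.35. BRCA2, a mediator that acts on resected ends (ENSG00000139618, chromosome 13, 32315474 to 32400266), had 445, 492 and 566 counts with BARD1 siRNA, against 758, 594 and 783 with control siRNA. Its groups lay apart by a narrow margin, and it was 1.36-fold lower (log2 fold change −0.45, SE 0.10, edgeR adjusted p = 0.000107). RAD51C, a subunit shared by the BCDX2 and CX3 complexes (ENSG00000108384, chromosome 17, 58692573 to 58735611), had 565, 478 and 498 counts with BARD1 siRNA, against 829, 782 and 957 with control siRNA. Normalised, this was 30.6 ± 3.65 CPM with BARD1 siRNA and 48.7 ± 3.82 CPM with control siRNA (SD, n = 3 each), a log2 fold change of −0.67 (SE 0.09, edgeR adjusted p = 1.39e-08).

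The other subunits of these complexes changed less than RAD51C in the fit, a difference between genes that was not tested. XRCC3 at −0.28 and XRCC2 at −0.21 were called lower. RAD51B at −0.22 and RAD51D at −0.19 were not (edgeR adjusted p = 0.393 and 0.179), and their intervals were −0.62 to 0.17 and −0.41 to 0.03. XRCC3 lost its call without control siRNA library 1 (edgeR adjusted p = 0.168) or BARD1 siRNA library 1 (0.207). XRCC2 lost it without control siRNA library 1 (0.189) or 2 (0.0513), without BARD1 siRNA library 1 (0.119) or 2 (0.123), and with the replicate block (0.0502), DESeq2 (0.0506) or no filter on low counts (0.0678).

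RAD52, an annealing protein that can act beside BRCA2, was among the low members of the set, with 62, 86 and 95 counts with BARD1 siRNA, against 130, 137 and 121 with control siRNA. The libraries did not overlap and the log2 fold change was −0.62 (SE 0.20, edgeR adjusted p = 0.00885), but without BARD1 siRNA library 1, the lowest, it was −0.49 and no longer called (0.0676). The strand exchange cofactors RAD54L and RAD51AP1 fell by 0.42 and 0.41 on the log2 scale. RAD51AP1 lost its call without control siRNA library 1 (edgeR adjusted p = 0.0505). RAD54B, a translocase related to RAD54L, had 178, 145 and 167 counts with BARD1 siRNA and 199, 143 and 161 with control siRNA, and its groups overlapped (log2 fold change 0.02 with SE 0.16, and −0.04 with upper-quartile factors).

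Of 5 structure-specific nucleases and scaffolds, 3 were lower and 0 higher (all tested genes: 20.3% and 22.0%). EME1, the regulatory partner of MUS81, had 223, 166 and 184 counts with BARD1 siRNA, against 298, 298 and 329 with control siRNA (log2 fold change −0.63, SE 0.13, edgeR adjusted p = 0.000104). SLX4, a scaffold for nucleases, had 284, 305 and 451 counts with BARD1 siRNA, against 548, 498 and 552 with control siRNA. BARD1 siRNA library 3 was nearest to the control libraries, and the means were 20.5 ± 4.71 CPM with BARD1 siRNA and 30.4 ± 1.01 CPM with control siRNA (SD, n = 3 each), a log2 fold change of −0.57 (SE 0.11, edgeR adjusted p = 6.2e-05). GEN1, a Holliday junction resolvase, fell by 0.48 on the log2 scale. MUS81 itself, at 0.18, was not called (edgeR adjusted p = 0.114), although all its BARD1 siRNA libraries lay above all its control siRNA libraries. The crosslink repair nuclease FAN1, at 0.05 with TMM and −0.02 with upper-quartile factors, was not called either.

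Resection and end-processing genes were mostly lower, with 4 lower and 1 higher of 6 (all tested genes: 20.3% and 22.0%). The nuclease-helicase DNA2 fell by 0.47, NBN of the MRE11 complex by 0.42, the exonuclease EXO1 by 0.33 and the helicase BLM by 0.31 on the log2 scale. The RecQ helicase WRN (ENSG00000165392, chromosome 8, 31033801 to 31173769) went the other way. It had 879, 884 and 1007 counts with BARD1 siRNA, against 663, 732 and 783 with control siRNA, and was 1.32-fold higher in libraries that did not overlap (log2 fold change 0.40, SE 0.08, edgeR adjusted p = 4.38e-05). RAD50, the ATPase subunit of the MRE11 complex, had 107, 144 and 131 counts with BARD1 siRNA and 130, 132 and 94 with control siRNA, and was not called.

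Of 6 checkpoint kinases and their activators 4 were lower and 0 higher (all tested genes: 20.3% and 22.0%). ATM and CHEK2 were not called. ATR, the kinase of stalled forks, had 698, 724 and 732 counts with BARD1 siRNA, against 1005, 815 and 975 with control siRNA (log2 fold change −0.32, SE 0.08, edgeR adjusted p = 0.00119). Its target kinase CHEK1 had 930, 940 and 1005 counts with BARD1 siRNA, against 1226, 1210 and 1251 with control siRNA (−0.30, SE 0.07, edgeR adjusted p = 0.000351). Neither gene's groups overlapped. The ATR partner ATRIP was called at −0.47 and the ATR activator TOPBP1 at −0.30. ATRIP lost its call without BARD1 siRNA library 2 (edgeR adjusted p = 0.0712). Other checkpoint genes, from a list of 55 partner genes of these pathways, moved in both directions. CLSPN, the adaptor between ATR and CHEK1, was lower at −0.53, as were TIPIN at −0.56, TIMELESS at −0.47 and ETAA1 at −0.31. HUS1 of the checkpoint clamp at 0.36 and CDC25A, a phosphatase that CHEK1 restrains, at 0.21 were higher. RAD9A at 0.27, RAD17 at −0.17, RAD1 at −0.19 and WEE1 at 0.02 were not called.

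ATM, the kinase of double-strand breaks, had 480, 521 and 553 counts with BARD1 siRNA, against 682, 537 and 629 with control siRNA. The normalised groups overlapped, and the log2 fold change of −0.19 (SE 0.09) was not called (edgeR adjusted p = 0.0961). Its target kinase CHEK2 had 138, 144 and 177 counts with BARD1 siRNA, against 177, 208 and 217 with control siRNA (log2 fold change −0.33, SE 0.15, edgeR adjusted p = 0.0723). CHEK2's estimate was as low as those of ATR and CHEK1 with about 2 times their SE, so a difference between CHEK2 and those kinases is not shown. ATM passed without control siRNA library 2 (edgeR adjusted p = 0.0252), and CHEK2 without control siRNA library 1 (0.0431) or BARD1 siRNA library 3 (0.0468). Both passed with upper-quartile factors (0.0216 for ATM, 0.0285 for CHEK2).

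Among the 4 genes of chromatin signalling at breaks 0 were lower and 1 was higher. Of all tested genes 20.3% were lower and 22.0% higher, and 4 genes are too few to tell this group from that background. RNF168, the ubiquitin ligase that marks histone H2A and thereby recruits 53BP1 and the BRCA1-BARD1 complex (ENSG00000163961, chromosome 3, 196468783 to 196503768), had 933, 832 and 1011 counts with BARD1 siRNA, against 809, 692 and 668 with control siRNA. All BARD1 siRNA values were above all control values, a 1.33-fold increase (log2 fold change 0.41, SE 0.09, edgeR adjusted p = 6.82e-05). TP53BP1, which encodes 53BP1, an inhibitor of resection, had 1917, 1959 and 1912 counts with BARD1 siRNA, against 2180, 1914 and 2135 with control siRNA. Its log2 fold change was −0.05 with an interval of −0.16 to 0.07. The scaffold MDC1 at −0.12 and the ubiquitin ligase RNF8 at −0.09 were not called with TMM, and MDC1 was called lower with upper-quartile factors (edgeR adjusted p = 0.0266).

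Levels per kilobase of gene length spanned a wide range. With control siRNA they ran from 0.695 CPM per kilobase for RAD50 to 25.3 for UBE2T, with a median of 5.32 over the 42 members. FANCI at 25.1, NBN at 21.3 and TOPBP1 at 18.6 CPM per kilobase followed UBE2T. At the low end RAD51B at 0.846, ATM at 1.46, FANCM at 1.61 and RAD52 at 1.76 CPM per kilobase followed RAD50. Over the control libraries UBE2T (23.2 to 29.3) and FANCI (23.8 to 25.8) overlapped, as did RAD50 (0.534 to 0.793) and RAD51B (0.707 to 1.03). Across the 42 members, which share the same libraries, the log2 fold change had Spearman's rho of −0.14 with the control level per kilobase and 0.17 with gene length.

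**Figure D4:**
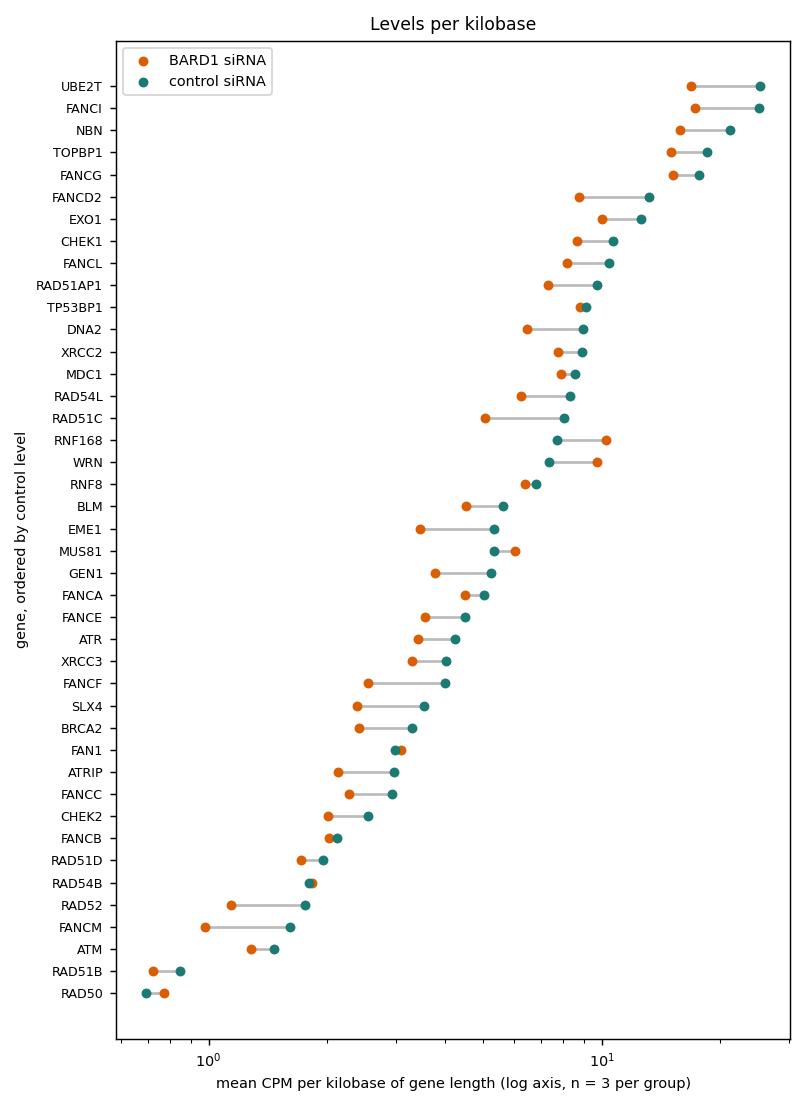
Mean CPM per kilobase of gene length in BARD1 siRNA (orange) and control siRNA (green) libraries (n = 3 each) for the 42 genes on a log axis, ordered by the control level. The control levels run from 0.695 for RAD50 to 25.3 for UBE2T, and the orange points lie left of the green ones for all but 6 genes (RNF168, WRN, MUS81, RAD50, FAN1 and RAD54B), of which FAN1 and RAD54B turn sign with upper-quartile factors or library size alone.

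Some of these levels depend on how reads of overlapping genes were assigned, which the sources used here do not state. By the coordinates of the count table, 33 members overlap another gene, 16 of them a tested one. RAD50 shares 90061 bases of its span with AC116366.3, a protein-coding entry on the same strand with a mean of 0.833 counts. For 7 members an overlapping gene had the higher mean count: CFL1 for MUS81, LRRC59 for EME1, STT3A for CHEK1, SMC6 for GEN1, KLC1 for XRCC3, MTMR10 for FAN1 and VRK2 for FANCL. The changes of these partners differed in sign from the member in several cases, with LRRC59 at 0.37 against EME1 at −0.63, KLC1 at 0.38 against XRCC3 at −0.28 and STT3A at 0.31 against CHEK1 at −0.30. SMC6 fell by 0.32 beside GEN1. The shared span differed widely among these 7 members. It was 80 bases for CHEK1, 678 for FANCL, 4168 for FAN1 and 4901 for MUS81. For EME1 it was 6425 bases, for XRCC3 16641 and for GEN1 35084.

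The partner genes, 55 genes of the same pathways that are not among the members, were called lower more often than higher. Of 54 tested, 21 were lower, 6 higher and 27 not called, against 20.3% lower and 22.0% higher among all tested genes. Their median was −0.13, and the difference from the 42 members was not tested. The 4 with the largest changes were SFR1 at 1.12, H2AFX at −0.71, BRCC3 at −0.70 and FAAP24 at −0.59. H2AFX encodes the histone variant phosphorylated at breaks and BRCC3 a deubiquitinase of the BRCA1-A complex. SFR1, a recombination cofactor, had 515, 589 and 521 counts with BARD1 siRNA, against 240, 267 and 271 with control siRNA, a 2.17-fold increase (log2 fold change 1.12, SE 0.11, edgeR adjusted p = 8.27e-13). BRCA1 had 1458, 1634 and 1738 counts with BARD1 siRNA and 2647, 2375 and 2953 with control siRNA.

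Markers of the dividing cell moved with the members. Of all tested genes 20.3% were lower and 22.0% higher. Of 33 S phase markers 31 were lower and 0 higher (median −0.57), and their summed level was 2666 to 2795 CPM with BARD1 siRNA, against 3914 to 4116 CPM with control siRNA. Of 52 G2/M markers 48 were lower and 1 higher (median −0.74), at 6833 to 7258 CPM with BARD1 siRNA and 11112 to 11598 CPM with control siRNA. The largest log2 fold changes among the S phase markers were −1.52 for E2F8, −1.21 for CCNE2, −1.06 for TYMS and −0.99 for PRIM1. Among the G2/M markers they were −1.31 for NEK2, −1.21 for TOP2A, −1.18 for ANLN and −1.16 for KIF20B. Neither list holds a member. Many recombination and Fanconi genes are known to be expressed mainly in S and G2 phase, and the part of these markers in the members' changes was not tested.

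**Figure D5:**
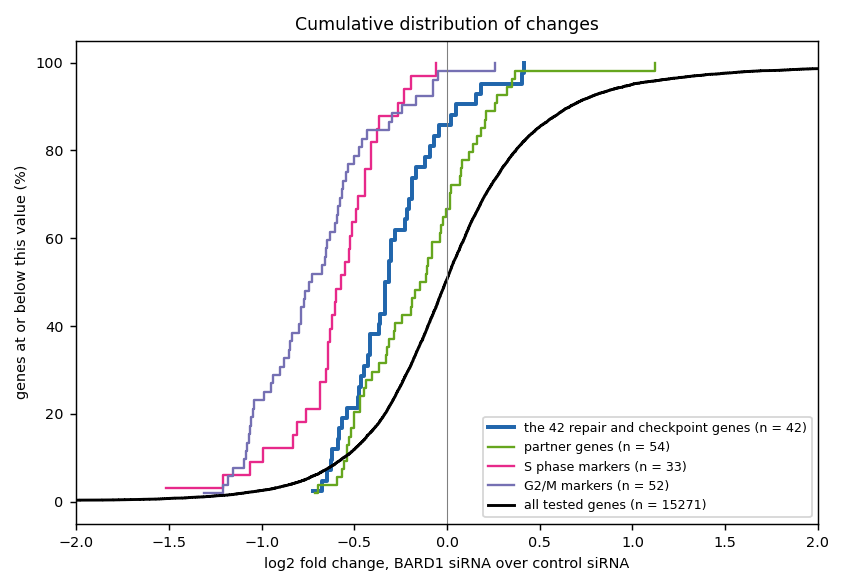
Cumulative share of genes (percent) at or below each log2 fold change of BARD1 siRNA over control siRNA, for the 42 repair and checkpoint genes, 3 other lists and all 15271 tested genes (a few values past the axis ends are not drawn). At its midpoint the curve of the 42 genes (median −0.32) lies between those of the S phase markers (−0.57) and the partner genes (−0.13), and left of that of all tested genes (−0.01).

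Promoter sequence was available for 37 of the 42 members. An E2F motif of the kinds listed above stood in 7 of these 37 windows (18.9%), in 5.41% of 10569 windows of tested genes and in 3.33% of all 27305 windows. The 7 genes were EXO1, TOPBP1, XRCC2, FANCA, FANCC, FANCD2 and GEN1, of which FANCA was not called. A CCAAT box stood in 43.2% of the members' windows, against 36.5% of those of tested genes, and a CHR element in 10.8%, against 9.52%. The 3 members with an E2F motif and the lowest fold changes are shown, chosen after the motif search, with capitals as above.
FANCD2 (chr3:10026187-10026486, plus strand): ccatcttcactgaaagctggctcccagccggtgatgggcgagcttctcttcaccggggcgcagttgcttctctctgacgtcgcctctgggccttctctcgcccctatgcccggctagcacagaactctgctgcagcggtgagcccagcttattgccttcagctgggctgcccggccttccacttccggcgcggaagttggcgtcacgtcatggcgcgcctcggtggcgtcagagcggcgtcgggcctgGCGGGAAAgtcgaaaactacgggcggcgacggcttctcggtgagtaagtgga
GEN1 (chr2:17753619-17753918, plus strand): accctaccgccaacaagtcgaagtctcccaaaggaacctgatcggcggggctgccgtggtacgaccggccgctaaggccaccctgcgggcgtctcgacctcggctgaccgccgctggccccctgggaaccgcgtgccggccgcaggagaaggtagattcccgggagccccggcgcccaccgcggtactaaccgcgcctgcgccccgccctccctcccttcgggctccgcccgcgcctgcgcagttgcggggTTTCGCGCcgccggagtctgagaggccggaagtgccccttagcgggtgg
FANCC (chr9:95317660-95317959, minus strand): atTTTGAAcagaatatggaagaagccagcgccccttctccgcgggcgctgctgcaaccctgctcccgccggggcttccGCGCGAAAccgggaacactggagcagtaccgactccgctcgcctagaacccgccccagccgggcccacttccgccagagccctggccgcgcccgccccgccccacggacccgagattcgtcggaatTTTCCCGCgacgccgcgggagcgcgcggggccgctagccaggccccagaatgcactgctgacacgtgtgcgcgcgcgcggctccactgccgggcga
The motif of FANCD2 begins at position −2 and that of GEN1 at position 1, counted along the window with the RefSeq start as 0. FANCC holds 2 E2F motifs, at −172 and −46, and its RefSeq start lies 109087 bases inside the start of the count table.

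Gene starts in the count table, not the RefSeq starts of the promoters above, were used to find neighbours. By these, 11 of 42 members (26.2%) began head to head within 1000 bases of a tested protein-coding gene on the other strand. Among 12787 tested protein-coding genes the share was 15.5%. In 2 of the members' pairs both genes were called lower: FANCM with FKBP3 (−0.72 and −0.36) and EME1 with MRPL27 (−0.63 and −0.24). This was 18.2% of the 11 members with such a neighbour, against 9.06% of 1986 tested protein-coding genes with one. The difference was not tested. Members were called lower more often than all tested genes (61.9% against 20.3%), and these shares were not adjusted for that. The largest change of a neighbour was that of MAP1A at −1.16 (SE 0.19, edgeR adjusted p = 1.65e-06), beside TP53BP1 at −0.05. RAD52 at −0.62 shared its start region with ERC1, which was higher at 0.85 (SE 0.16, edgeR adjusted p = 8.69e-06). FANCB at −0.07 lay beside MOSPD2 at 0.55 (SE 0.13), and ATM at −0.19 beside NPAT at −0.27 (SE 0.09).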

How the data were processed

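RNA from 6 cultures of SKOV3ip1 cells, 3 with BARD1 siRNA and 3 with control siRNA, was sequenced after poly(A) capture, per the labels' protocols. The authors deposited raw read counts per gene with gene coordinates and lengths, not normalised. HISAT2, CASAVA and the GRCh38 build are named per the submitters' processing notes; the sources used here do not name the counting program or its strand setting. Reads of overlapping genes could therefore be split or lost.

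Counts were fitted with edgeR 4.0.16 in R 4.3.3, with the robust quasi-likelihood test, TMM factors and filterByExpr (minimum count 10, minimum total 15), which kept 15271 of 58735 genes, all 42 members among them. The SE was taken as the size of the log2 fold change over the root of the F statistic. Levels between genes were divided by the deposited gene length. Libraries of 16621108 to 17743404 counts limit the precision of genes with few counts. The test was checked on simulated data with far fewer changed genes than were called here. That check cannot show how the test performs with this many changes. Promoters came from RefSeq (GRCh38.p14).

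The members and lists were chosen with earlier results of these data known. Full values are given for members called with an absolute log2 fold change of at least 0.5, members called higher, and BRCA2, ATM, ATR, CHEK1, CHEK2, FANCD2 and TP53BP1. RAD50, RAD54B, SFR1, BRCA1, CD24 and the partner genes named beside the checkpoint kinases were given after their values were seen. Some genes and 1 gene list are not reported here. For other lists the 4 largest changes are named. The 16 alternatives were other scalings, filters and gene sets, DESeq2 1.42.0, limma-voom (limma 3.58.1), no robust estimation, a replicate block and leaving out each library.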

Additional observations from a re-analysis of the deposited data

How the results depend on the processing

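Across the 16 alternatives 22 to 31 members were lower, and the same 2, WRN and RNF168, were higher in each. Of the 26 lower members 19 were called lower in all 16, and 7 lost the call in at least 1 (ATRIP, FANCG, FANCL, RAD51AP1, RAD52, XRCC2 and XRCC3). Of the 14 uncalled members 5 were called in at least 1 (ATM, CHEK2, FANCA, FANCE and MDC1). Leaving out 1 library gave 22 to 28 lower members. The log2 fold change turned sign, without a call, for 4 members. FAN1 was −0.018 with upper-quartile factors, −0.013 with library size alone, and −0.050 (without BARD1 siRNA library 2) to 0.145 when 1 library was left out. RAD54B was −0.042 with upper-quartile factors, −0.036 with library size alone, and −0.073 to 0.160 when 1 library was left out. FANCB was −0.172 to 0.029 and RAD50 −0.0079 to 0.259 when 1 library was left out. The causes were not tested. Same-numbered libraries did not deviate together, with correlations of −0.0091, −0.015 and −0.022. These values cannot decide whether same-numbered cultures were handled together, which the labels do not state. With the replicate block 25 members were lower and 2 higher, and XRCC2 lost its call. Upper-quartile factors moved the median of all genes by −0.07 and called 3975 genes lower and 2815 higher, against 3107 lower and 3355 higher with TMM. Members with few counts, such as RAD50, RAD51B and RAD52, have wide intervals at this depth.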
